A study of Homo sapiens with 32 samples.

Results

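The histone cluster genes are the replication-type histone genes that sit together on chromosome 6 (HIST1) and chromosome 1 (HIST2 and HIST3). They were taken here as the rows named HIST1H, HIST2H or HIST3H with a value above 0 in at least 16 of 32 libraries. Of 69 such rows in a table of 25066 features, 54 met the rule: 4 linker histone genes (H1), 13 H2A, 15 H2B, 11 H3 and 11 H4 genes. Reads were found in all 32 libraries for 30 of them. Just inside the rule were HIST1H3C, with reads in 16 libraries, and HIST1H3G, with reads in 17. Just outside were HIST1H1T, with reads in 14, and HIST1H1A and HIST2H2AA3, with reads in 12 each. No HIST3 gene was kept.

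RNA came from TMD8 and DOHH2, human diffuse large B-cell lymphoma lines of the activated B cell type and the germinal centre type, which both carry an engineered Cas9. Each line received the vehicle DMSO or 500 nM CSKi, an inhibitor of the kinase CSK, for 1, 3, 6 or 24 h, in 2 libraries per group and 16 groups. CSK restrains the Src family kinases that relay B cell receptor signals. The labels call the duplicates biological replicates without naming separate cultures, so p-values measure the spread between these libraries only, which may be technical. The questions were what 24 h or less of the inhibitor did to histone cluster RNA in each line, and how that RNA moved with vehicle alone.

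Nucleosomes are built from H2A, H2B, H3 and H4, and H1 binds the DNA that links them. Most histone cluster mRNA is made in S phase and ends in a stem-loop bound by SLBP, with no poly(A) tail. Some of the same genes can also be read through to a later poly(A) signal, which gives polyadenylated mRNA. The TruSeq stranded mRNA kit named in the labels selects poly(A) RNA, so the reads here describe polyadenylated copies and any carry-over, not the total histone mRNA.

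The stem-loop is shown because it marks where the unpolyadenylated mRNA would end. In GENCODE v29 transcripts (GRCh38, matched by accession for all 54 genes), 22 genes had an annotated transcript that held it, and for 16 of these a transcript ran at least 100 bases past it. These 16 were 2 H2A, 8 H2B, 3 H3 and 3 H4 genes, and no H1 gene. The counts describe the annotated models only, since a model that stops short of the stem-loop cannot show it. The 6-base stem of each sequence below is in capitals and the 4-base loop between its arms in lower case, with 5 bases on either side.
HIST2H2BE: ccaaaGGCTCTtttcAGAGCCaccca
HIST1H2BF: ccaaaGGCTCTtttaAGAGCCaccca
HIST1H2AG: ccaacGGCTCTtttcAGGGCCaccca
HIST1H3E: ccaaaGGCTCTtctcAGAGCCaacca
HIST1H4H: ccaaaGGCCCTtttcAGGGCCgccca
The form shown for HIST2H2BE was the most frequent, in 11 of the 22 genes. The form of HIST1H2BF and that of HIST1H4H were each found in 4. Annotated transcripts went on for 1729 bases past the stem-loop in HIST2H2BE, 1761 in HIST1H2AG and 732 in HIST1H2BF. Mean reads per library in TMD8 had a median of 82.4 over the 16 genes with such a transcript and 14.8 over the other 38, a description that also follows transcript length. The pair of genes with the most reads, HIST1H1C and HIST1H2BK, were not among the 16. Their annotated models, of 642 and 381 bases, held no stem-loop, so whether they have a longer transcript cannot be told here.

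Many of these genes are near copies of each other. In 33 of the 54, no 75-base stretch was shared with a transcript of another gene, while in 9 more than 50% of such stretches were, through an overlapping model or a near-identical copy. Among genes named below these were HIST1H2AI (60.1%), HIST1H2BK (50.5%), HIST1H3D (100%) and HIST2H3D (70.3%), so their counts are uncertain.

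Libraries held 12273442 to 24907030 mapped reads. The B cell genes CD79A, CD79B, MS4A1 and PAX5 were at log2 11.42 or above in every library. Of 4 T and NK cell genes, CD2 was at 0 in every library, CD3E was at 3.85 to 5.15 in DOHH2 and at most 0.55 in TMD8, CD3D was at 0 to 3.92 in DOHH2 and 0 in TMD8, and NKG7 was at 5.48 to 6.46 in DOHH2 and 2.94 to 4.01 in TMD8. Of 3 myeloid genes, LYZ was at 7.10 to 8.10 in DOHH2 and 0 to 1.94 in TMD8, and CD14 and CSF1R were at most 3.75 in either line. COL1A1, a fibroblast gene, was at 8.58 to 10.32 in TMD8 and 0.09 to 3.72 in DOHH2, and of the epithelial genes EPCAM was at most 0.61 and KRT8 at 4.98 to 5.99 in TMD8 and at most 0.89 in DOHH2. The DOHH2 libraries at 24 h went against their labels. By the SD across features of the difference between 2 libraries, the library labelled DMSO replicate 1 was nearer to CSKi replicate 2 (0.218 in log2) than to DMSO replicate 2 (0.328). DMSO replicate 2 was in turn nearer to CSKi replicate 1 (0.275). The duplicates of the other 14 groups differed by 0.17 to 0.226. Labels were kept as given.

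The test was limma on the deposited log2 values (0 for no reads) of the 12000 features with the highest mean, with Benjamini-Hochberg adjustment over those features. A gene is said to have risen or fallen at an adjusted p under 0.05. In TMD8, 29 members were among them, with 22.4 to 5484.0 mean reads per library, and the other 25 had 0.6 to 20.2. In DOHH2 only 9 were, and the other 45 had at most 11.4 mean reads. Errors are the standard error of the fit, with n = 2 libraries per group.

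The histone cluster genes differed widely between the lines. HIST1H1C, which encodes the linker histone H1.2, had between 3885 and 6803 reads per library in TMD8 and between 50 and 126 in DOHH2. Over the 6 vehicle libraries of 1, 3 and 6 h, its deposited log2 values were 13.05 to 13.23 (median 13.09) in TMD8 and 6.55 to 7.12 (median 6.65) in DOHH2, so the lines did not overlap. The difference was 6.37 ± 0.09, 82.5-fold (limma adjusted p = 1.31e-25). HIST1H2BK, an H2B gene, was 17.7-fold higher in TMD8 (4.15 ± 0.06, adjusted p = 1.85e-25). HIST2H2BE differed by 4.41 ± 0.09 and HIST1H2BD by 3.98 ± 0.10, both H2B genes and both higher in TMD8.

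**Figure D1:**
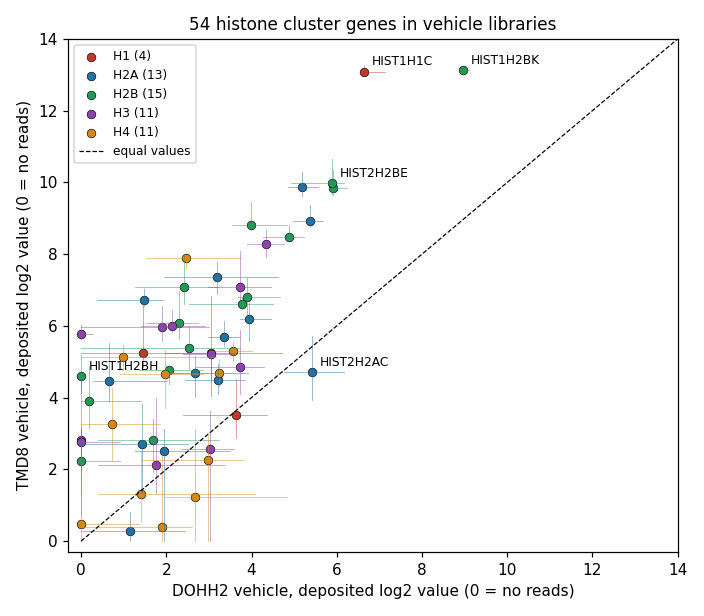
Deposited log2 value of each of the 54 histone cluster genes in the 6 vehicle libraries of 1, 3 and 6 h, DOHH2 on the x axis and TMD8 on the y axis. Points are medians, thin lines run from the lowest to the highest library, and colours give the histone class. HIST1H1C and HIST1H2BK lie far above the line of equal values, and HIST2H2AC lies below it.

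Of the 19 members tested between the lines, 10 passed the filter on low values within TMD8 and not within DOHH2, and 1, HIST2H2AC, within DOHH2 and not within TMD8. The filter favours a difference in these 11, so they are not counted. Of the 8 that passed within both lines, 8 were higher in TMD8 and 0 lower. Over all features 87.9% were called, 42.3% higher in TMD8 and 45.5% lower, with a median of -0.03. Low values can be described without the test, though the membership rule could be met by the 16 libraries of 1 line alone. In 38 of 54 members every TMD8 vehicle library of 1 to 6 h was above every DOHH2 library, against 33% of the 16614 features that met the same detection rule, and in 0 members was every TMD8 library below (31.4% of features). The 38 were 2 of 4 H1 genes, 9 of 13 H2A, 13 of 15 H2B, 8 of 11 H3 and 6 of 11 H4. HIST1H2BH had 98 reads over the 6 TMD8 libraries and 0 over the 6 DOHH2 libraries. HIST1H3C had 35 and 0. Each had reads in all 16 TMD8 libraries and so met the membership rule through the line where it was high, and no fold is given. At the other end, HIST1H4A had 12 reads in TMD8 and 38 in DOHH2, and the linker histone gene HIST1H1B had 44 and 54.

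Summed over all 54 members, RPM (reads relative to the mapped reads of the library) ranged from 810.9 to 1019.8 in TMD8 and from 40.6 to 52.6 in DOHH2. HIST1H1C and HIST1H2BK held 62 to 75.4% of these reads in TMD8 libraries and 43.8 to 56.4% in DOHH2 libraries. Without that pair, the other 52 gave 208.2 to 353.0 in TMD8 and 17.7 to 28.5 in DOHH2.

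HIST2H2AC and HIST2H2BE are transcribed away from each other from starts 236 bases apart. The lines overlapped in HIST2H2AC and not in HIST2H2BE. HIST2H2AC had deposited log2 values of 3.94 to 5.72 in TMD8 vehicle and 4.77 to 6.16 in DOHH2 vehicle. It passed the filter within DOHH2 only, which favours a difference, so its test between the lines is not used. HIST2H2BE had 9.69 to 10.66 in TMD8 and 4.92 to 6.16 in DOHH2. The promoter window of HIST2H2BE is shown because both genes share it: RefSeq's 300-base windows of the pair (250 bases before to 50 after each start, GRCh38.p14) overlap by 265 bases. It lies at chr1:149886633-149886932 on the minus strand. CCAAT boxes (CCAAT, or ATTGG on the other strand) and the octamer ATTTGCAT are in capitals, the latter the DNA element that POU factors such as OCT1 and OCT2 bind.
HIST2H2BE promoter: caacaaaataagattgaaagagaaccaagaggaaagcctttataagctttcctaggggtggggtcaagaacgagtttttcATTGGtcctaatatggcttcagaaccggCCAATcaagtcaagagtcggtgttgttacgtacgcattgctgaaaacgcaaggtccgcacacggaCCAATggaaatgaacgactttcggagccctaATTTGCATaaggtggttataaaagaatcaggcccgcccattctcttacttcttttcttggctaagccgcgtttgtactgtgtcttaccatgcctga

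RefSeq windows matched 49 members. Searched on both strands, the octamer ATTTGCAT was in 10 of 12 H2A and 12 of 15 H2B windows, in 1 of 9 H3 windows and in no H1 or H4 window, against 1.8% of 27305 promoters of the same length. CCAAT was in 43 of 49 against 35.7%. H2A and H2B counts share sequence, since 9 H2A and H2B pairs are divergent with starts 194 to 248 bases apart. The H1 box AAACACA, an element of linker histone promoters, was in 4 of 4 H1 windows against 5.8% of all promoters. It is shown for HIST1H1C, the linker histone gene with the most reads, at chr6:26056421-26056720 on the minus strand (GRCh38.p14), with the H1 box or its reverse complement TGTGTTT and the CCAAT box in capitals.
HIST1H1C promoter: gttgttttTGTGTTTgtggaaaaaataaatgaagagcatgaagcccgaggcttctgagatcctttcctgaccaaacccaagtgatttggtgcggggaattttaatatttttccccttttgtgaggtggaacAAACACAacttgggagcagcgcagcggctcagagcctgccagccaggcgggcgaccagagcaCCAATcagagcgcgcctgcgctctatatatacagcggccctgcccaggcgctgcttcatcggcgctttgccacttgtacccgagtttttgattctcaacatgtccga

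In TMD8 vehicle, many histone cluster transcripts were lower at 6 and 24 h than at 1 h. HIST1H1E, the linker histone H1.4 gene, had log2 values of 6.78 and 6.83 at 1 h (63 and 65 reads), 5.50 and 4.94 at 3 h, 5.01 and 4.03 at 6 h, and 5.46 and 5.35 at 24 h. Both 1 h libraries were above all 6 later vehicle libraries. It fell by 2.29 ± 0.30 from 1 to 6 h (4.88-fold, limma adjusted p = 4.07e-06) and stood at -1.40 ± 0.30 at 24 h. HIST1H1D, the H1.3 gene, went from 6.42 and 6.76 to 4.93 and 4.85 at 3 h and 5.41 and 5.09 at 6 h (-1.35 ± 0.25 at 6 h). HIST1H3D, an H3 gene, went from 7.996 and 8.09 to 7.01 and 6.75 at 3 h and 6.87 and 7.14 at 6 h (-1.04 ± 0.15 at 6 h). HIST1H2BG, an H2B gene, went from 7.97 and 7.80 to 7.01 and 7.17 at 3 h and 6.61 and 6.86 at 6 h (-1.15 ± 0.15 at 6 h). In each of these, both libraries of 1 h were above the 6 later ones.

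Between 1 and 6 h in TMD8 vehicle, 14 of 29 members fell and 0 rose (median -0.59), against 23.5% of all features called, 12.4% lower and 11.2% higher (median -0.004). They were 3 of 3 H1 genes tested, 3 of 6 H2A, 6 of 11 H2B, 2 of 6 H3 and 0 of 3 H4. The fall was small in HIST1H1C (-0.15 ± 0.04) and larger in HIST2H2BE (-0.85 ± 0.08) and HIST1H2AI, an H2A gene (-0.76 ± 0.15). Between 1 and 24 h, 16 fell and 0 rose (median -0.42; background 46.7% called, 23.9% lower and 22.8% higher), with HIST1H2BF, an H2B gene, at -1.32 ± 0.22 and HIST2H2BE at -1.10 ± 0.08. Both contrasts share the 1 h libraries. By the F test over the 4 times, 20 of 29 members changed, against 58.4% of all features.

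The choice of 1 h as the reference decided these counts. With 3 h as the reference, an alternative chosen after the data were seen, 0 of 29 members were called at 6 h (smallest limma adjusted p = 0.112; 2.29% of features called). At 24 h, 4 were higher and 6 lower (21.9% of features in each direction). The 4 were HIST1H2BH (1.48 ± 0.33), HIST1H2BJ (1.08 ± 0.205), HIST1H1D (0.73 ± 0.25) and HIST1H4I (0.70 ± 0.28), and the largest fall was in HIST1H2BC (-0.83 ± 0.12). The treated libraries were high at 1 h too: HIST1H1E was at 6.63 and 6.94 in CSKi at 1 h and 4.98 and 5.32 at 3 h.

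**Figure D2:**
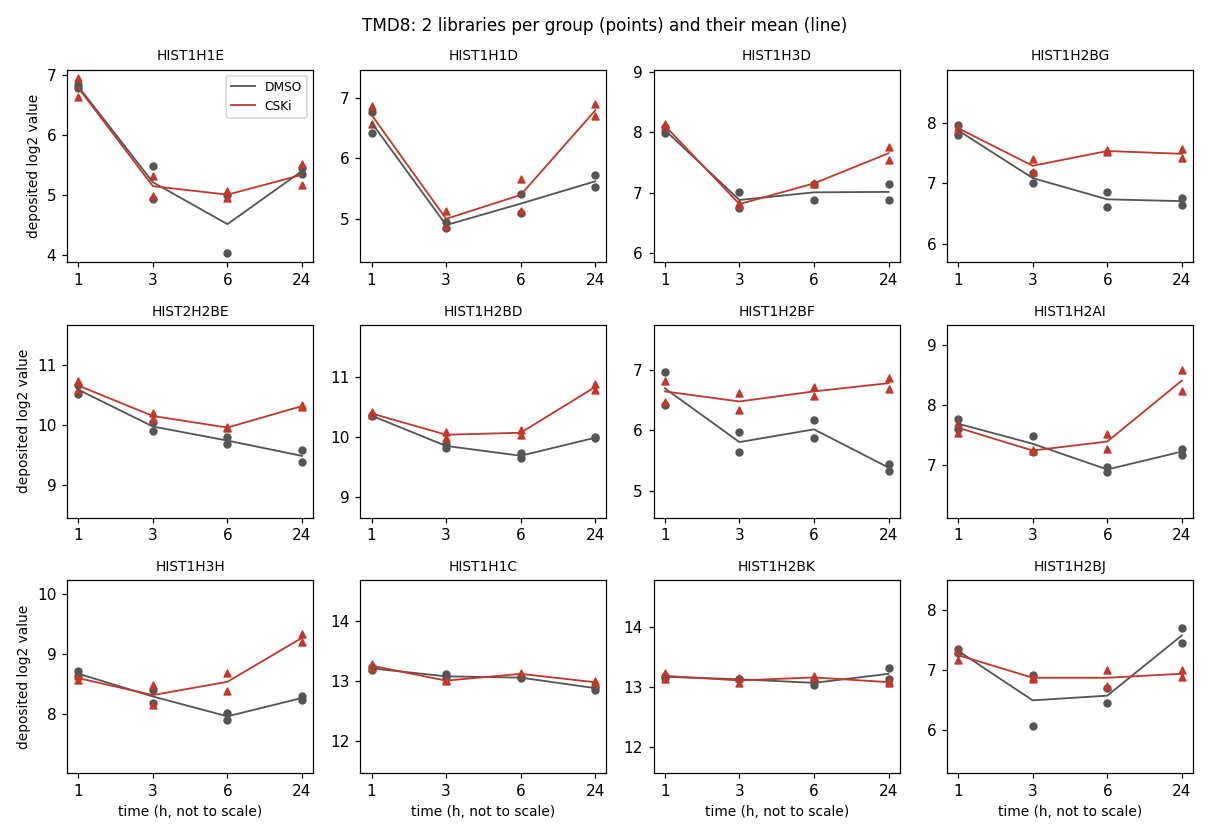
Deposited log2 value of 12 histone cluster genes in TMD8 at 1, 3, 6 and 24 h in DMSO (grey circles) and CSKi (red triangles). Points are libraries and lines join the means of 2, with every panel spanning 3.2 log2 units. HIST1H1E, HIST1H1D, HIST1H3D and HIST1H2BG start high at 1 h in both treatments, and at 24 h the CSKi points of HIST1H1D, HIST1H2BF, HIST1H2AI and HIST1H3H lie above the DMSO points.

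In DOHH2 vehicle, HIST2H2BE was the 1 member of 9 tested that changed. It had log2 values of 6.00 and 6.16 at 1 h, 5.85 and 5.95 at 3 h and 4.92 and 5.28 at 6 h, and the 6 h values lay below all the others. By the F test over 1, 3 and 6 h it was the only call, against 52.8% of all features. It fell by 0.985 ± 0.244 from 1 to 6 h (limma adjusted p = 0.00202, fitted without the 24 h libraries), where 43.6% of all features were called and 23.3% called lower. HIST1H1E was too low for the test, at 11 and 14 reads at 1 h and 3 and 4 at 6 h. With 16000 features tested, HIST1H1E was called lower (-2.05 ± 0.52, limma adjusted p = 0.00432). The share of those features called is not given here, and at these reads the call carries little weight.

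With CSKi at 1 h in TMD8, none of the 29 members tested was called by limma (0 at an unadjusted p under 0.05, and 0 by voom on recovered reads). The median difference was 0.02, and 0.05% of all features were called. At 3 h none was called either, with 6 at an unadjusted p under 0.05 and 0 by voom. By limma at an adjusted p under 0.05, 4.73% of all features were called. The share of all features at an unadjusted p or by voom is not given, so the counts there have no background. The largest value was that of HIST1H2BH at 1.01 ± 0.33 (adjusted p = 0.0789). In the fit of only the groups compared, 1 member was called, HIST1H2AC.

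At 6 h of CSKi in TMD8, 6 members rose and 0 fell (median 0.31, with 28 of 29 above 0), against 12.7% of all features called, 5.67% higher and 6.98% lower. HIST1H2BG had log2 values of 6.61 and 6.86 in DMSO (67 and 92 reads) and 7.53 and 7.55 in CSKi (121 and 139 reads), with no overlap. It rose by 0.80 ± 0.15 (1.74-fold, limma adjusted p = 0.000393). HIST1H3H, an H3 gene, rose by 0.57 ± 0.12, from 7.91 and 8.01 to 8.39 and 8.68. The others were HIST1H2AI (0.46 ± 0.15), HIST1H2BD (0.38 ± 0.06), HIST1H2AG, an H2A gene (0.36 ± 0.08), and HIST1H2AC, also H2A (0.31 ± 0.07). HIST1H2AI missed the threshold when any single library of the 4 was dropped (highest limma adjusted p over all alternatives 0.331). HIST1H3H missed it without CSKi replicate 2 and HIST1H2AC without DMSO replicate 1. The CSKi values at 6 h of HIST1H2BG were still below those of both treatments at 1 h.

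At 24 h of CSKi in TMD8, 20 of 29 members rose and 2 fell (median 0.68), against 54% of all features called, 27.9% higher and 26.2% lower (median 0.02). HIST1H2BF had log2 values of 5.32 and 5.44 in DMSO (21 and 33 reads) and 6.88 and 6.69 in CSKi (59 and 52 reads), the largest rise at 1.40 ± 0.22 (2.64-fold, limma adjusted p = 8.93e-06). HIST1H2AI went from 7.18 and 7.28 to 8.24 and 8.58 (1.18 ± 0.15). HIST1H1D went from 5.52 and 5.72 to 6.70 and 6.90 (1.18 ± 0.25). None of these groups overlapped, and over all members tested 27 of 29 had groups that did not overlap, against 73.6% of all features. HIST2H3D, an H3 gene, went from 5.79 and 5.10 to 6.75 and 6.55 (1.204 ± 0.26), and HIST1H3H from 8.30 and 8.23 to 9.33 and 9.20 (1.00 ± 0.12). HIST1H3J rose by 1.05 ± 0.44 (adjusted p = 0.0446) from 14 and 22 reads to 27 and 31, and missed the threshold when any single library of the 4 was dropped (highest adjusted p over all alternatives 0.138).

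By class at 24 h, 2 of 3 H1 genes tested rose, 5 of 6 H2A, 7 of 11 H2B, 5 of 6 H3 and 1 of 3 H4, and the genes that fell were both H2B. HIST1H4H, the H4 gene that rose (0.96 ± 0.17), had 7.14 and 7.86 in DMSO and 8.62 and 8.30 in CSKi. The members with many reads rose with narrow errors: HIST2H2BE from 9.58 and 9.39 to 10.33 and 10.30 (0.83 ± 0.08), and HIST1H2BD from 9.99 and 9.98 to 10.87 and 10.78 (0.84 ± 0.06). The linker histone genes had unequal values. HIST1H1D rose, HIST1H1C stood at 12.86 and 12.91 in DMSO and 12.95 and 13.01 in CSKi (0.10 ± 0.04, adjusted p = 0.0319), and HIST1H1E stood at -0.06 ± 0.30 (adjusted p = 0.876). HIST1H1B was too low for the test, at 8 and 14 reads in DMSO and 11 and 7 in CSKi.

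The 2 genes that fell at 24 h were HIST1H2BJ and HIST1H2BK. HIST1H2BJ had 7.44 and 7.70 in DMSO and 6.99 and 6.88 in CSKi (-0.64 ± 0.205, limma adjusted p = 0.0109). Its DMSO level at 24 h was above that at 3 and 6 h, when it had 6.92, 6.07, 6.70 and 6.44. At 1 h it had 7.345 and 7.284 in DMSO, and 24 h was not called against 1 h (0.257 ± 0.205, limma adjusted p = 0.321). HIST1H2AG, the divergent partner of HIST1H2BJ with a start 248 bases away, went from 8.69 and 8.67 to 9.48 and 9.56 (0.835 ± 0.08). HIST1H2BK had 13.13 and 13.30 in DMSO and 13.06 and 13.10 in CSKi (-0.14 ± 0.05, adjusted p = 0.0133), a fall of 1.1-fold. Both missed the threshold without DMSO replicate 2, with highest limma adjusted p over all alternatives of 0.111 for HIST1H2BJ and 0.43 for HIST1H2BK. HIST1H2BK also missed it without a variance trend and in the fit of only the groups compared.

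**Figure D3:**
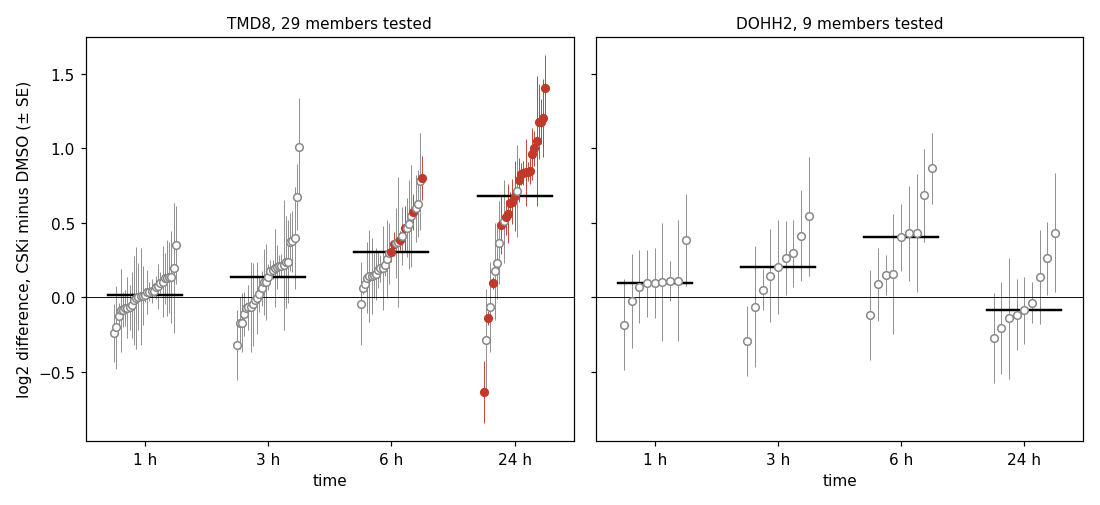
Log2 difference of CSKi minus DMSO for the 29 members tested in TMD8 (left) and the 9 tested in DOHH2 (right), by time. Bars are standard errors, filled red points have a limma adjusted p under 0.05, and black lines are medians. In TMD8 the median goes from 0.02 at 1 h to 0.68 at 24 h, and no DOHH2 point is filled.

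Summed over the 52 members other than HIST1H1C and HIST1H2BK, RPM in TMD8 vehicle were 310.6 and 331.1 at 1 h, 230.0 and 236.1 at 3 h, 208.2 and 210.7 at 6 h, and 215.9 and 212.2 at 24 h. In CSKi they were 315.1 and 331.9 at 1 h, 258.6 and 259.9 at 3 h, 259.0 and 263.6 at 6 h, and 353.0 and 341.0 at 24 h. By these sums the CSKi libraries were above the vehicle libraries at 3, 6 and 24 h and overlapped them at 1 h. Over all 54 members they overlapped at 3 h too, at 870.8 and 895.8 in DMSO and 900.0 and 889.9 in CSKi. They were still above at 6 and 24 h. At 24 h the sums over all 54 were 810.9 and 862.9 in DMSO and 930.0 and 949.0 in CSKi. All of these were below the 1 h libraries, at 978.7 to 1019.8. The 25 members too low for the test summed to 12.08 and 11.47 RPM in DMSO at 24 h (174 and 238 reads) and to 17.26 and 15.41 in CSKi (247 and 216 reads). The DMSO libraries of 24 h enter both the CSKi contrast and the vehicle contrast against 1 h, so the values of HIST1H2BF, 1.40 after CSKi and -1.32 in vehicle, share them. The difference between the 24 h and the 6 h response, tested itself, was called in 10 of 29 members, near the share of 29.6% over all features. Among the 10, HIST1H2BD stood at 0.46 and HIST1H2BJ at -0.93. In bulk RNA, a change in the share of cells that make a transcript and a change in RNA per cell cannot be told apart.

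**Figure D4:**
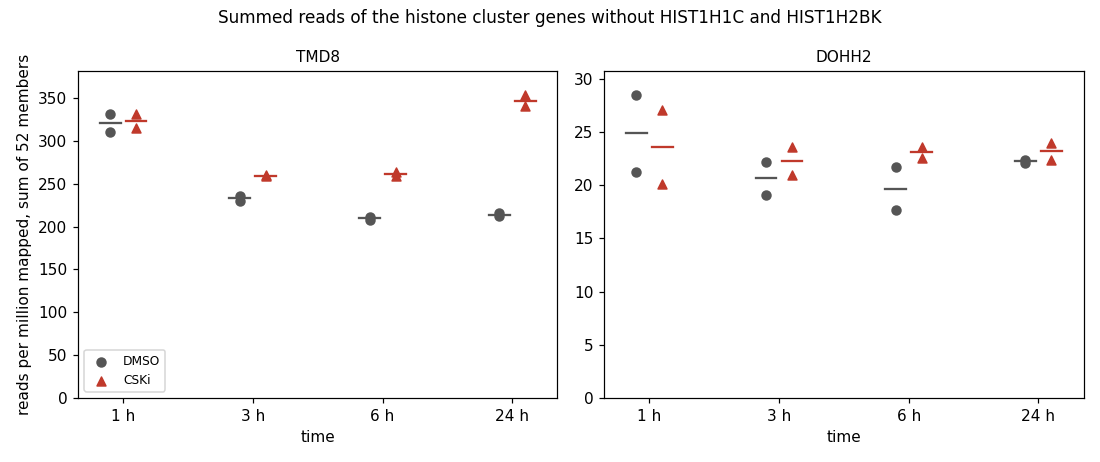
Summed RPM of the 52 histone cluster genes other than HIST1H1C and HIST1H2BK, by time and treatment, in TMD8 (left) and DOHH2 (right), on separate axes that start at 0. Points are libraries and short lines are means of 2. In TMD8 the CSKi libraries of 24 h, at 353.0 and 341.0, are the highest of the 16.

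In DOHH2, none of the 9 members tested was called at 1, 3, 6 or 24 h by limma, with 0, 0, 2 and 0 at an unadjusted p under 0.05 and 0 by voom at each time. At an adjusted p under 0.05, limma called 0.375, 2.62, 0.883 and 0.0% of all features. No share of all features is given at an unadjusted p or by voom. The members' medians were 0.10, 0.20, 0.40 and -0.09. At 6 h HIST2H2BE had 4.92 and 5.28 in DMSO (23 and 30 reads) and 5.97 and 5.96 in CSKi (59 and 47 reads), which did not overlap (0.87 ± 0.24, adjusted p = 0.110). In the fit without the 4 libraries of 24 h it was called (adjusted p = 0.0168), where 13.6% of all features were called and 6.96% called higher. At 24 h its values were 5.90 and 5.63 in the libraries labelled DMSO and 5.59 and 5.71 in those labelled CSKi (-0.12 ± 0.24), and these libraries go against their labels as described above. The members tested in DOHH2 had 15.2 to 343.3 mean reads, and the precision was lower than in TMD8. The standard error of HIST1H1C was 0.225 in DOHH2 and 0.04 in TMD8. The 24 h libraries that go against their labels enter this DOHH2 fit. In the vehicle fit without them, the standard error of HIST1H1C was 0.177 for 6 h against 1 h. What set the precision was not tested. Tested directly over 1, 3 and 6 h, the response differed between the lines in 0 of 19 members by limma F test, against 2.59% of all features. There were 3 members at an unadjusted p under 0.05 and 0 by voom, again without a share of all features.

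Genes of DNA replication and histone supply also changed at 24 h of CSKi in TMD8. Of 33 DNA replication and G1/S genes, 30 fell and 0 rose (median -0.50), among them the sliding clamp gene PCNA (-0.66 ± 0.04), the helicase subunit gene MCM4 (-0.62 ± 0.04), the thymidylate synthase gene TYMS (-0.69 ± 0.04) and the cyclin gene CCND3 (-1.01 ± 0.06). Of 18 histone chaperone genes 11 fell and 1 rose (median -0.32), including the FACT subunit gene SSRP1 (-0.41 ± 0.04) and IPO4, which encodes a histone importin (-0.57 ± 0.04). Of 15 quiescence and arrest genes tested 11 rose and 2 fell (median 0.33), including the antiproliferative genes BTG2 (0.74 ± 0.03) and BTG1 (0.79 ± 0.05). The share of features called is that given above for 24 h. Whether the shift in these lists had a part in the histone values was not tested.

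Of 21 factors of histone gene transcription and of the 3′ end of histone mRNA, 10 fell and 4 rose at 24 h in TMD8 (median -0.17). Of all features 26.2% were called lower and 27.9% higher in that contrast. SLBP, the stem-loop binding protein gene, had 10.98 and 11.02 in DMSO and 10.37 and 10.54 in CSKi (-0.54 ± 0.06, limma adjusted p = 5.25e-08). At 6 h it stood at -0.02 ± 0.06 (adjusted p = 0.906). NPAT, which encodes a coactivator of histone transcription, stood at -0.18 ± 0.11 (adjusted p = 0.191). POU2AF1, which encodes a B cell coactivator of POU factors on the octamer, rose by 0.92 ± 0.07 at 24 h and 0.61 ± 0.07 at 6 h. Between the lines in vehicle, SLBP stood at -1.49 ± 0.04 and POU2AF1 at -3.09 ± 0.05 (log2, TMD8 minus DOHH2), while 28 of 33 DNA replication genes were lower in TMD8 and 5 higher, against 45.5% of all features lower and 42.3% higher.

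**Figure D5:**
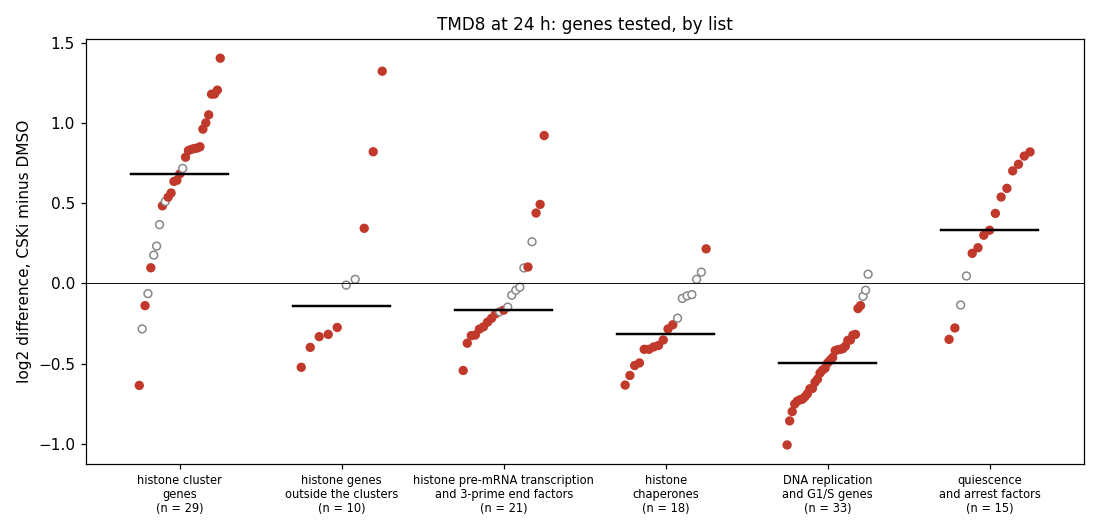
Log2 difference of CSKi minus DMSO in TMD8 at 24 h for the histone cluster genes tested and the tested members of 5 other gene lists. Filled red points have a limma adjusted p under 0.05, and black lines are medians, 0.68 for the histone cluster genes and -0.50 for the DNA replication and G1/S genes. MCM2 stands in 2 lists.

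Histone genes outside the clusters, most of which encode variants whose mRNA is polyadenylated, were split at 24 h. Of 10 tested 3 rose and 5 fell (median -0.14), against 27.9% of all features called higher and 26.2% lower. The share that rose was thus near that of all features. H2AFZ, the H2A.Z gene, stood at -0.52 ± 0.03, H2AFX at -0.32 ± 0.05 and the macroH2A gene H2AFY at -0.40 ± 0.04. H1FX, a linker histone gene, rose by 0.82 ± 0.11, and HIST4H4, an H4 gene that lies apart from the clusters, rose by 1.32 ± 0.19. HIST4H4 had log2 values of 7.15 and 7.33 at 1 h and 5.32 and 5.61 at 24 h in TMD8 vehicle (-1.77 ± 0.19), and 6.83 and 6.75 after 24 h of CSKi. In vehicle between 1 and 24 h, 27 of 33 DNA replication genes rose and 2 fell (median 0.29), against 22.8% of all features called higher and 23.9% lower. SLBP was at 0.20 ± 0.06 and H2AFX at 0.48 ± 0.05 in that contrast.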

How the data were processed

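The deposited table holds log2 values that, as the values show, are read counts times a factor per library, with 0 for no reads. Per the submitters' processing notes, HTSeq and hg19 were used. Not given in the sources used here were the aligner, the strand setting and the factor. Dividing by the value of 1 read gave whole reads within 0.1 for 99.8 to 100% of values up to 300 reads. The total row served only as library depth. At the lowest mean tested in DOHH2, 15.2 reads, counting error alone is large.

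Group means were fitted by limma 3.58.1 (R 4.3.3) with a variance trend and two-sided tests, over the 16 libraries of a line or all 32. The step was tested on simulated data. DOHH2 vehicle contrasts left out the 24 h libraries. Stem-loops and motifs were searched in GENCODE v29 and RefSeq sequences (GRCh38). The files use hg19, and none of their coordinates are used. Python 3.11.15, pandas 2.3.3 and matplotlib 3.10.9 made tables and figures.

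Members and gene lists were chosen with earlier results of these data known. Genes were named by rule: per contrast up to 6 members each way with the largest difference among calls without overlap, the 5 members with the highest mean per line, every H1 gene, up to 4 members each way with the smallest p between lines, and up to 4 per list with the smallest p, with SLBP, NPAT and H2AFX always. Other genes named here, such as HIST1H2BH, HIST1H3C, HIST1H4A, HIST1H4I, HIST1H2BC and HIST1H4H, were chosen after their values were seen. Alternatives were other filters, scalings, variance models and thresholds, voom on recovered reads, a replicate block and left-out libraries.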

Additional observations from a re-analysis of the deposited data

Results flagged for a closer look

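In 10 of 29 members the response to CSKi in TMD8 differed between 24 h and 6 h, tested as the difference of the responses itself (limma, adjusted p under 0.05). Of all features 29.6% were called, a similar share, so the count does not set the members apart. The difference was positive in 8 members: 1.035 for HIST1H1D, 0.804 for HIST1H4H, 0.715 for HIST1H2AI, 0.656 for HIST2H2BF, 0.611 for HIST2H2BE, 0.474 for HIST1H2AG, 0.461 for HIST1H2BD and 0.328 for HIST1H2AC, on the log2 scale. It was negative in 2, at -0.933 for HIST1H2BJ and -0.228 for HIST1H2BK. Leaving out single libraries lost the call of HIST1H1D in 4 cases, of HIST1H4H, HIST1H2AC, HIST1H2BJ and HIST1H2BK in 3 each and of HIST1H2AI in 2. The calls of HIST2H2BE, HIST2H2BF, HIST1H2AG and HIST1H2BD held in all 22 alternatives run for each. Among these, the alternatives that changed only the threshold or the set of members reused the main fit and could not lose a call.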

How the results depend on the processing

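How many features entered the test by construction changes how many members are tested. With 8000 features, 3 members were called for CSKi at 6 h in TMD8 and 7 at 24 h, 7 for TMD8 vehicle over time, 6 for vehicle at 6 h and 6 at 24 h against 1 h, 6 for the difference of the 24 h and 6 h responses, 2 between lines, and 0 for DOHH2 vehicle over time and at 6 h. With 16000 features, 45 were called between lines and 4 for each DOHH2 vehicle contrast. With features above 0 in at least 50% of the libraries, 45 were called between lines, 5 for DOHH2 vehicle over time and 4 at 6 h against 1 h. Between the lines, the filter favours a difference in members that are high in 1 line, as said above. Except where given above, the alternatives in this section have no share of all features beside them. Their counts are therefore not read as results about the members. For the settings that follow, the cause was not tested. Fitting only the groups compared called 1 member for CSKi in TMD8 at 3 h and 1 in DOHH2 at 6 h, and leaving out the 4 DOHH2 24 h libraries called 1 in DOHH2 at 6 h. An adjusted p under 0.10 gave 4 in TMD8 at 3 h and 2 for DOHH2 vehicle over time, and one under 0.01 gave 5 for the difference of responses.

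With 3 h as the vehicle reference in TMD8, chosen after seeing the data, 0 members were called at 6 h and 10 at 24 h. HIST1H1E then stood at 0.187, HIST1H3D at 0.135 and HIST1H1D at 0.728 at 24 h, and HIST1H1D at 0.357 and HIST1H3D at 0.128 at 6 h, against falls from 1 h. Leaving out 1 library gave 0 to 1 calls for CSKi in TMD8 at 3 h, 4 to 6 at 6 h and 16 to 19 at 24 h, 17 to 19 for TMD8 vehicle over time, 12 to 14 at 6 h and 14 to 16 at 24 h against 1 h. It gave 0 to 2 for DOHH2 vehicle over time (0 without DMSO 6 h replicate 1, 2 without DMSO 1 h replicate 1), 1 to 2 for DOHH2 vehicle at 6 h, 7 to 10 for the difference of responses and 19 between lines. CSKi at 1 h in TMD8, at 1, 3 and 24 h in DOHH2 and the line difference in response had 0 calls in every alternative run. The fit of DOHH2 at 24 h without its own libraries was not run.

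Over 56 gene results and 1203 alternatives, 1145 kept direction and side of the threshold, 53 lost the call and 5 reversed. Those that changed only the threshold or the set of members reused the main fit and could not lose a call. The tally also holds the tests between the lines, including members that the filter favours, and every alternative of these tests kept its call. It is therefore not read as a measure of how firm the results are. Replicate numbers gave little pairing over all groups: correlations of same-numbered deviations had a median of 0.018 over 28 pairs of groups in TMD8 and 0.031 over 28 in DOHH2. Between treated and vehicle of the same time in TMD8 they were 0.068, -0.005, 0.036 and 0.166 at 1, 3, 6 and 24 h. The value at 24 h was the highest of the 28. With the replicate number as a block, CSKi at 24 h in TMD8 called 22 members and at 6 h 6, and no count changed. A crossed pairing of the DOHH2 24 h libraries, where the correlation was -0.476, called 0.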
